A study of Mus musculus with 24 samples.

Results

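Homologous recombination and Fanconi anemia genes are described here in primary murine astrocytes after X-irradiation. The 40 genes were chosen by symbol, from general knowledge of both pathways and with earlier results of these data known. All 40 were found among the 49315 genes listed in the count tables. They were grouped by role as DNA end resection (6 genes), BRCA mediators (5), paralogs of the recombinase (5), cofactors of strand exchange (5), dissolution and resolution of joined molecules (7), the Fanconi core complex with its E2 enzyme (9), the Fanconi ID complex (2) and theta-mediated end joining (1).

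Astrocytes are the glial cells that keep neurons supplied and the extracellular milieu stable. They were isolated from the cortex of wild type C57BL/6J mouse embryos near the end of gestation, with the cells of all embryos of a pregnant mouse pooled, and were used in passage 1. Cells were mock-irradiated (0 Gy) or exposed to 0.1 or 2 Gy of X-rays and harvested 6 h or 24 h later, which gives 6 groups of 4 libraries. All groups shared strain, genotype and culture, and the unirradiated cells at each time served both doses as control. Poly(A)-selected RNA was sequenced, and levels are given as CPM, counts scaled to a common library size after TMM normalization, which adjusts for library composition.

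Total counts per library ranged from 14742855 to 38194800. All 12 astrocyte markers were above 1 CPM on average in every group, and *Gfap*, the intermediate filament of astrocytes, lay between 343 and 797 CPM. All 14 microglia markers were above 1 CPM as well. Their summed level was 353 to 420 CPM in the 6 libraries numbered replicate 2 and 2038 to 3499 CPM in the other libraries, so replicate 2 stood apart at every dose and time. Of the 14 neuronal markers 6 or 7 were above 1 CPM, depending on the group, with sums of 413 to 736 CPM, although *Rbfox3* reached at most 0.887 CPM. Of the 12 markers of the oligodendrocyte lineage 7 or 8 were, with sums of 410 to 898 CPM, although the myelin marker *Mog* reached at most 0.372 CPM. Of the 14 fibroblast and vessel markers 10 or 11 were above 1 CPM, depending on the group. In such bulk samples fewer cells of a type and less RNA per cell cannot be told apart.

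Homologous recombination repairs a double strand break by copying the sister chromatid, and it is used mainly in the S and G2 phases. The broken ends are first resected to single strands, BRCA proteins then load the recombinase, helper proteins drive strand exchange, and helicases and nucleases separate the joined molecules. The Fanconi anemia pathway acts on crosslinks between the DNA strands: a core complex attaches ubiquitin to the ID complex, which brings nucleases to the lesion and passes the break on to recombination. Several of these genes are transcribed chiefly in cycling cells.

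The 40 genes were lower on balance 24 h after 2 Gy, and the genes with the largest differences were *Exo1*, *Gen1*, *Blm*, *Brip1*, *Fancd2*, *Fancb* and *Fignl1*, whose mean CPM differed from that of mock-irradiated cells by -63.4% to -57.9%. The median log2 fold change of the 40 genes was -0.65, against 0.01 over all 15892 genes tested, and 34 of 40 were below 0 (48.7% of all genes were). In edgeR's unpaired quasi-likelihood fit none of the 40 passed an adjusted p of 0.05, nor did any other gene (0% called). At an unadjusted p under 0.05, 22 were lower and 0 higher, where the shares among all genes were 2.17% and 1.42%.

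The numbers of the replicates mark paired libraries within a time, since equal numbers shared their deviations from the group means. With this number as a block in the fit, 24 of the 40 genes were called lower and 1, *Fance*, higher, against 6.69% and 6.53% of all genes. When GC content and gene length were also corrected for, 15 were called lower and 0 higher (1.69% and 1.82% of all genes), with a median of -0.49. Across all genes tested the log2 fold change correlated with GC content (r = 0.559, taken over genes and not over independent samples), and the 40 genes had a median GC content of 46.0%, against 49.6% in genes with at least 10 counts in 4 libraries. DESeq2 without the block called 9 lower, namely *Bard1*, *Blm*, *Brca1*, *Brip1*, *Exo1*, *Fancd2*, *Fanci*, *Fignl1* and *Gen1* (0.712% of all genes, with 0.0141% called higher). The blocked count depended on the libraries. It was 7 lower without replicate 2 (0.376% of all genes), 9 without replicate 1 (0.68%) and 12 without replicate 4 (0.875%). Without replicate 3 it was 27 lower and 2 higher (16.4% and 16.7% of all genes). The blocked median stayed between -0.68 and -0.62 in these fits.

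In 19 of the 40 genes, all 4 libraries of the 2 Gy group lay below all 4 of the 0 Gy group, and in 0 genes above, while 2.01% and 0.944% of all genes showed such groups. Compared within replicate numbers, 29 genes were lower in 4 of 4 pairs and 2, *Fance* and *Mus81*, were higher in 4 of 4, against 20.4% and 18.7% of genes with at least 10 counts in 4 libraries. The median difference of the 40 genes was -0.68 in the pair numbered 1, -0.84 in pair 2, -0.51 in pair 3 and -0.40 in pair 4 on the log2 scale.

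**Figure D1:**
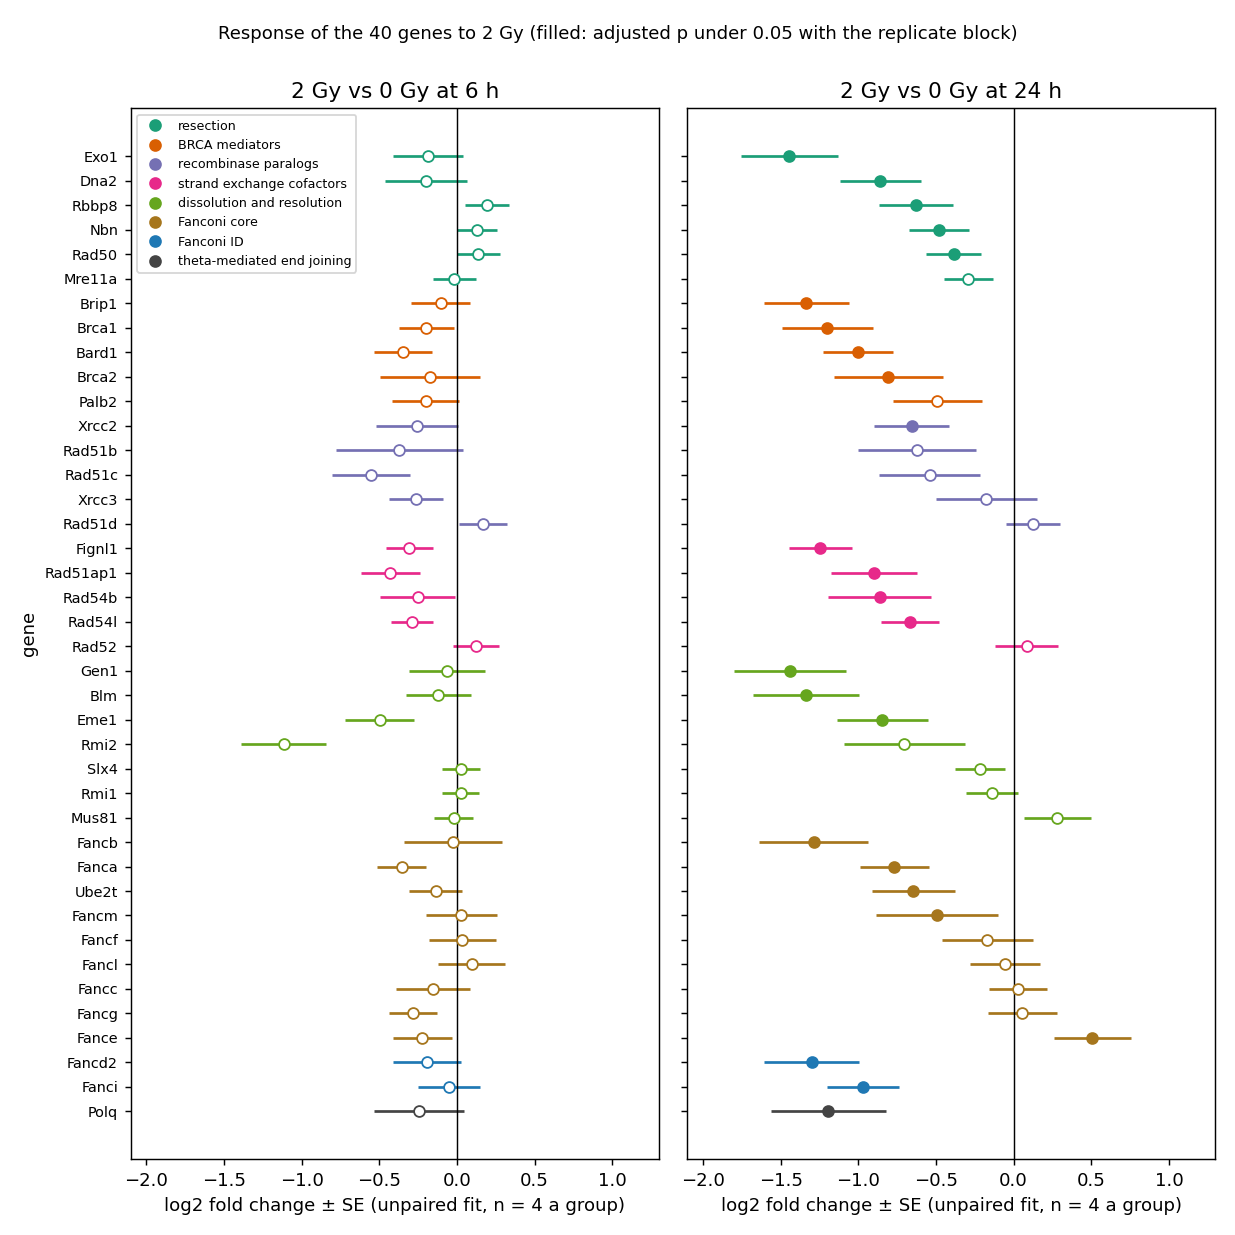
Log2 fold change with its standard error (unpaired edgeR fit, n = 4 libraries a group) of each of the 40 genes at 2 Gy against 0 Gy, at 6 h on the left and 24 h on the right, coloured by role. Filled symbols had an adjusted p under 0.05 with the replicate block, which were 0 genes at 6 h and 25 at 24 h, 24 of them below 0.

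Promoter sequences from RefSeq, each 250 bases before to 50 bases after a transcription start in build GRCm38.p6, were found for 31 of the 40 genes, as 35 promoters. Words bound by E2F factors, which drive S phase transcription, and the CHR word of genes of the G2 and M phases were searched on both strands. The E2F words were TTTCCCGC, TTTGGCGC, TTTGCCGC and TTTCGCGC, the CHR words TTTGAA and TTCGAA, and no E2F match overlapped a CHR match. An E2F word was found in 6 of the 35 promoters and in 2.26% of all 32851 promoters, a CHR word in 6 of 35 and in 19.2%, and CCAAT in 21 of 35 and in 37.4%. Of the 17 genes with a promoter that were called lower with the block, 2 held an E2F word, as did 3 of the other 14. A CHR word was found in 5 of the 17 and in 1 of the 14. The matches describe letters only and show no binding. The promoters of *Gen1*, of *Bard1* and *Brca2*, the genes called lower that held an E2F word, and of *Fancg*, which held one and had a log2 fold change of 0.06 with an SE of 0.222, are printed 5′ to 3′ on the gene's strand, with E2F and CHR words in capitals.
Gen1, chr12:11265758-11266057, minus strand, CHR word starting at position 25 from the start: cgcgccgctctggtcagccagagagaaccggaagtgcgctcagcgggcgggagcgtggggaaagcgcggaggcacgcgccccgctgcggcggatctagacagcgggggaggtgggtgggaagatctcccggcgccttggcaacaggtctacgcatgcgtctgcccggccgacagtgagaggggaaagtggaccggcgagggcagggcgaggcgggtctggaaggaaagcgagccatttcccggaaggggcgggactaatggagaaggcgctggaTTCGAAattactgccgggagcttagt
Bard1, chr1:71102923-71103222, minus strand, CHR word at -242 and E2F word at -209: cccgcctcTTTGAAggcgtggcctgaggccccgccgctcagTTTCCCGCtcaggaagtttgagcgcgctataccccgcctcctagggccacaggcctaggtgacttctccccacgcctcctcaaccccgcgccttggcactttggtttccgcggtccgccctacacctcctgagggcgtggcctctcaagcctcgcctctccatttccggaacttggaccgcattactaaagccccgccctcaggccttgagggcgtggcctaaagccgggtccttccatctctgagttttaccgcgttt
Brca2, chr5:150522371-150522670, plus strand, E2F word at -168: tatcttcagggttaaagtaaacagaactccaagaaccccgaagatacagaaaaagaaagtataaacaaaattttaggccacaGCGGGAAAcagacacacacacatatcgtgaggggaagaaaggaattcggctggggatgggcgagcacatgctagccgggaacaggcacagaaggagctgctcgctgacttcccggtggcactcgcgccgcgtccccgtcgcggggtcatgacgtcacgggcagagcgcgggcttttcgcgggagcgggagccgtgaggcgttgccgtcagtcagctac
Fancg, chr4:43010252-43010551, minus strand, E2F word at -52: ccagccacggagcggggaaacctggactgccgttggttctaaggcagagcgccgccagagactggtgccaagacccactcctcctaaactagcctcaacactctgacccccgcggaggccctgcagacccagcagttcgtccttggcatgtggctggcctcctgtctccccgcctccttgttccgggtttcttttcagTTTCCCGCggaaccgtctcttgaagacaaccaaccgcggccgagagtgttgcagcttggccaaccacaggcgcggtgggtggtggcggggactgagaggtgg
The E2F words were thus carried by *Bard1* and *Brca2*, called lower with the block 24 h after 2 Gy, and by *Fancg*, which was not called. The groups overlapped for *Brca2* and *Fancg* and did not for *Bard1*.

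Among the 6 resection genes, all were below 0 at 24 h after 2 Gy, with a median log2 fold change of -0.56, and 5 were called lower with the block. Coordinates refer to GRCm38. *Exo1* (chr1:175880581-175913489), the exonuclease that extends resected ends, measured 6.26, 12.5, 7.90 and 5.85 CPM in replicates 1 to 4 at 0 Gy. At 2 Gy it measured 2.04, 3.21, 3.72 and 2.93 CPM, so the highest irradiated library stayed below the lowest mock-irradiated one. Its mean changed from 8.12 ± 3.04 to 2.98 ± 0.703 CPM (SD, n = 4), a log2 fold change of -1.44 with an SE of 0.313, an adjusted p of 0.338 unpaired and of 0.00572 with the block.

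*Dna2*, a nuclease and helicase of long-range resection, had 9.31, 7.31, 8.74 and 11.2 CPM at 0 Gy and 4.83, 3.43, 4.66 and 7.20 CPM at 2 Gy. The groups nearly touched, the replicate 4 value at 2 Gy lying just under the replicate 2 value at 0 Gy. The log2 fold change was -0.86 with an SE of 0.262 and an adjusted p of 0.00892 with the block. The break sensor complex, made of *Mre11a*, *Rad50* and *Nbn*, had smaller log2 fold changes. *Mre11a* had 27.5, 23.9, 22.04 and 24.7 CPM at 0 Gy and 22.1, 17.7, 19.5 and 20.7 CPM at 2 Gy, with overlapping groups, a log2 fold change of -0.29 (SE 0.155) and an adjusted p of 0.0727 with the block. *Rad50* and *Nbn* had log2 fold changes of -0.39 and -0.48, and *Rbbp8*, which starts resection together with that complex, had -0.63. These 3 were called lower with the block, and none of them once GC content and length were corrected for.

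All 5 BRCA mediators were below 0, with a median of -1.004, and 4 were called lower with the block. *Brip1* (chr11:86058138-86201193), a helicase that binds BRCA1, had 9.01, 10.5, 6.24 and 8.72 CPM at 0 Gy and 3.40, 3.21, 2.40 and 4.60 CPM at 2 Gy. Each irradiated library held less than any mock-irradiated one, and the log2 fold change was -1.33 (SE 0.272, adjusted p 0.274 unpaired and 0.00337 blocked). *Brca1*, which together with *Bard1* forms the ubiquitin ligase that acts at broken ends, had 18.6, 29.8, 12.3 and 19.4 CPM at 0 Gy and 7.49, 10.4, 6.73 and 10.1 CPM at 2 Gy. Replicate 2 was highest in both groups, and the groups did not overlap, with a log2 fold change of -1.20 (SE 0.292, adjusted p 0.444 unpaired and 0.00289 blocked).

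*Bard1* lay at a log2 fold change of -1.004 (SE 0.225), and *Brca2*, which loads the recombinase, at -0.81 (SE 0.350). *Brca2* was no longer called when GC content and length were corrected for (adjusted p 0.104). *Palb2*, the bridge between BRCA1 and BRCA2, had 4.80, 3.59, 2.68 and 4.44 CPM at 0 Gy and 2.52, 2.54, 2.21 and 3.71 CPM at 2 Gy. Its groups overlapped, although each pair was lower at 2 Gy, and its log2 fold change of -0.49 (SE 0.285) had an adjusted p of 0.102 with the block.

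The 5 paralogs of the recombinase, which stabilise its filament, had a median of -0.54, and 1 of them was called lower with the block. *Xrcc2* had 10.1, 11.7, 10.2 and 7.99 CPM at 0 Gy and 5.99, 8.16, 4.47 and 6.68 CPM at 2 Gy. The replicate 2 library at 2 Gy exceeded the replicate 4 library at 0 Gy, so the groups overlapped, with a log2 fold change of -0.66 (SE 0.242), an adjusted p of 0.0309 with the block and of 0.0761 with the correction for GC content and length. *Rad51d* had 16.6, 15.1, 14.3 and 15.1 CPM at 0 Gy and 18.4, 17.1, 13.3 and 17.6 CPM at 2 Gy, a log2 fold change of 0.13 (SE 0.173). *Rad51b* was counted with only 4 to 15 reads per library in these 2 groups, and its log2 fold change of -0.62 (SE 0.381) was not called.

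Of the 5 cofactors of strand exchange, 4 were called lower with the block, and the median was -0.86. *Fignl1* (chr11:11787431-11808962), an ATPase that removes the recombinase from DNA, had 16.7, 22.7, 15.4 and 15.1 CPM at 0 Gy and 8.24, 6.96, 6.64 and 7.57 CPM at 2 Gy. Its irradiated libraries were close together and lay far below the mock-irradiated range. The log2 fold change was -1.25 (SE 0.204), with the lowest unpaired adjusted p of the 40 genes, 0.184, and a blocked adjusted p of 0.00289. *Rad51ap1*, which stimulates strand pairing, had 6.84, 7.87, 8.08 and 7.21 CPM at 0 Gy and 2.86, 2.90, 6.17 and 4.16 CPM at 2 Gy. Replicate 3 at 2 Gy came near to the mock-irradiated libraries without reaching them, and the log2 fold change was -0.90 (SE 0.276, blocked adjusted p 0.0200).

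The translocases *Rad54l* and *Rad54b* had log2 fold changes of -0.67 and -0.86. Both were called lower with the block, and neither once GC content and length were corrected for. Exons of *Rad54b* overlap those of other genes over 35.9% of their length and those of *Rad54l* over 15.4%, so reads of these neighbours may be included. The use of strand for counting is not known, and it would not separate *Rad54b* from *Fsbp*, which lies on the same strand. *Rad52*, a strand annealing protein, had 10.2, 9.82, 11.1 and 11.6 CPM at 0 Gy and 8.24, 9.94, 14.1 and 12.9 CPM at 2 Gy. Its irradiated libraries lay on both sides of the mock-irradiated ones, with a log2 fold change of 0.08 (SE 0.205).

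The 7 genes of dissolution and resolution were divided. *Gen1* (chr12:11240926-11265787), a nuclease that cuts Holliday junctions, had 6.34, 10.2, 5.03 and 5.33 CPM at 0 Gy and 2.52, 3.70, 1.46 and 2.19 CPM at 2 Gy, without overlap. The log2 fold change was -1.44 (SE 0.362, adjusted p 0.498 unpaired and 0.00262 blocked). *Blm* (chr7:80454733-80535119), the helicase that dissolves double junctions, had 8.51, 12.9, 5.69 and 8.83 CPM at 0 Gy and 3.75, 4.55, 1.98 and 3.90 CPM at 2 Gy. Replicate 2 was the highest and replicate 3 the lowest in both groups, and the log2 fold change was -1.34 (SE 0.341, adjusted p 0.510 unpaired and 0.00248 blocked).

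*Rmi1*, a partner of BLM, had 15.9, 14.9, 15.1 and 17.0 CPM at 0 Gy and 15.5, 11.6, 14.0 and 15.7 CPM at 2 Gy, a log2 fold change of -0.14 (SE 0.167) that was 0.10 with the block and the correction for GC content and length. The nuclease *Mus81* had a log2 fold change of 0.28 (SE 0.215) and its partner *Eme1* one of -0.84 (SE 0.295), of which *Eme1* alone was called with the block (adjusted p 0.0288, against 0.0775 for *Mus81*). *Slx4*, the scaffold of these nucleases, lay at -0.22 (SE 0.162). *Rmi2* lay at -0.70 (SE 0.388), with 8 to 46 reads per library in these 2 groups.

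The Fanconi core complex had a median of -0.17 over 9 genes, with 4 called lower and 1 higher by the blocked fit. With the block and the correction for GC content and length the median was -0.32, near those of resection (-0.37) and of the paralogs (-0.39) in that fit. *Fancb*, a scaffold subunit, had 5.05, 6.15, 2.57 and 3.92 CPM at 0 Gy and 1.70, 2.36, 1.98 and 1.19 CPM at 2 Gy, without overlap and with a log2 fold change of -1.29 (SE 0.351, blocked adjusted p 0.0177). *Fanca* had 5.93, 6.84, 8.85 and 7.47 CPM at 0 Gy and 3.61, 4.50, 3.77 and 5.12 CPM at 2 Gy. Its groups did not overlap either, and the log2 fold change was -0.77 (SE 0.222, blocked adjusted p 0.0207).

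*Ube2t*, the E2 enzyme of the complex, lay at -0.64 (SE 0.267), and the translocase *Fancm* at -0.49 (SE 0.396). Both were called with the block and neither after the correction for GC content and length. *Fancc* had 10.02, 8.61, 11.1 and 8.41 CPM at 0 Gy and 9.81, 10.6, 10.2 and 8.16 CPM at 2 Gy, a log2 fold change of 0.03 (SE 0.190). *Fancf*, *Fancg* and *Fancl*, the last being the ubiquitin ligase of the complex, lay between -0.17 and 0.06. *Fance*, which links the complex to its substrate, had 8.22, 6.61, 13.4 and 10.4 CPM at 0 Gy and 12.5, 12.7, 17.5 and 12.1 CPM at 2 Gy. It was higher in every pair although the groups overlapped, with a log2 fold change of 0.51 (SE 0.248) and a blocked adjusted p of 0.0380, which was 0.292 with the correction for GC content and length. Its GC content, 61.4%, was the highest of the 40 genes.

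Both genes of the ID complex, the substrate of the core complex, were called lower with the block. *Fancd2* (chr6:113531682-113597017) had 8.18, 11.2, 6.54 and 9.14 CPM at 0 Gy and 3.06, 4.28, 2.12 and 4.68 CPM at 2 Gy, a log2 fold change of -1.30 (SE 0.304, adjusted p 0.414 unpaired and 0.00284 blocked). *Fanci* had 6.68, 7.73, 6.72 and 5.33 CPM at 0 Gy and 3.75, 3.75, 2.68 and 3.27 CPM at 2 Gy, a log2 fold change of -0.97 (SE 0.231, blocked adjusted p 0.0111). Neither gene's groups overlapped, and exons of *Fanci* overlap those of another gene over 15.95% of their length. Such overlap was also 10.7% in *Eme1*, 10.5% in *Fanca*, 14.96% in *Fancf* and 13.7% in *Fancl*, so reads of neighbours may be included there too.

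*Polq*, the polymerase theta of an alternative end joining route that starts from resected ends, had 5.76, 9.64, 4.15 and 5.12 CPM at 0 Gy and 2.52, 3.52, 1.46 and 3.23 CPM at 2 Gy. The groups did not overlap, and the log2 fold change was -1.19 (SE 0.370, adjusted p 0.940 unpaired and 0.0103 blocked).

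**Figure D2:**
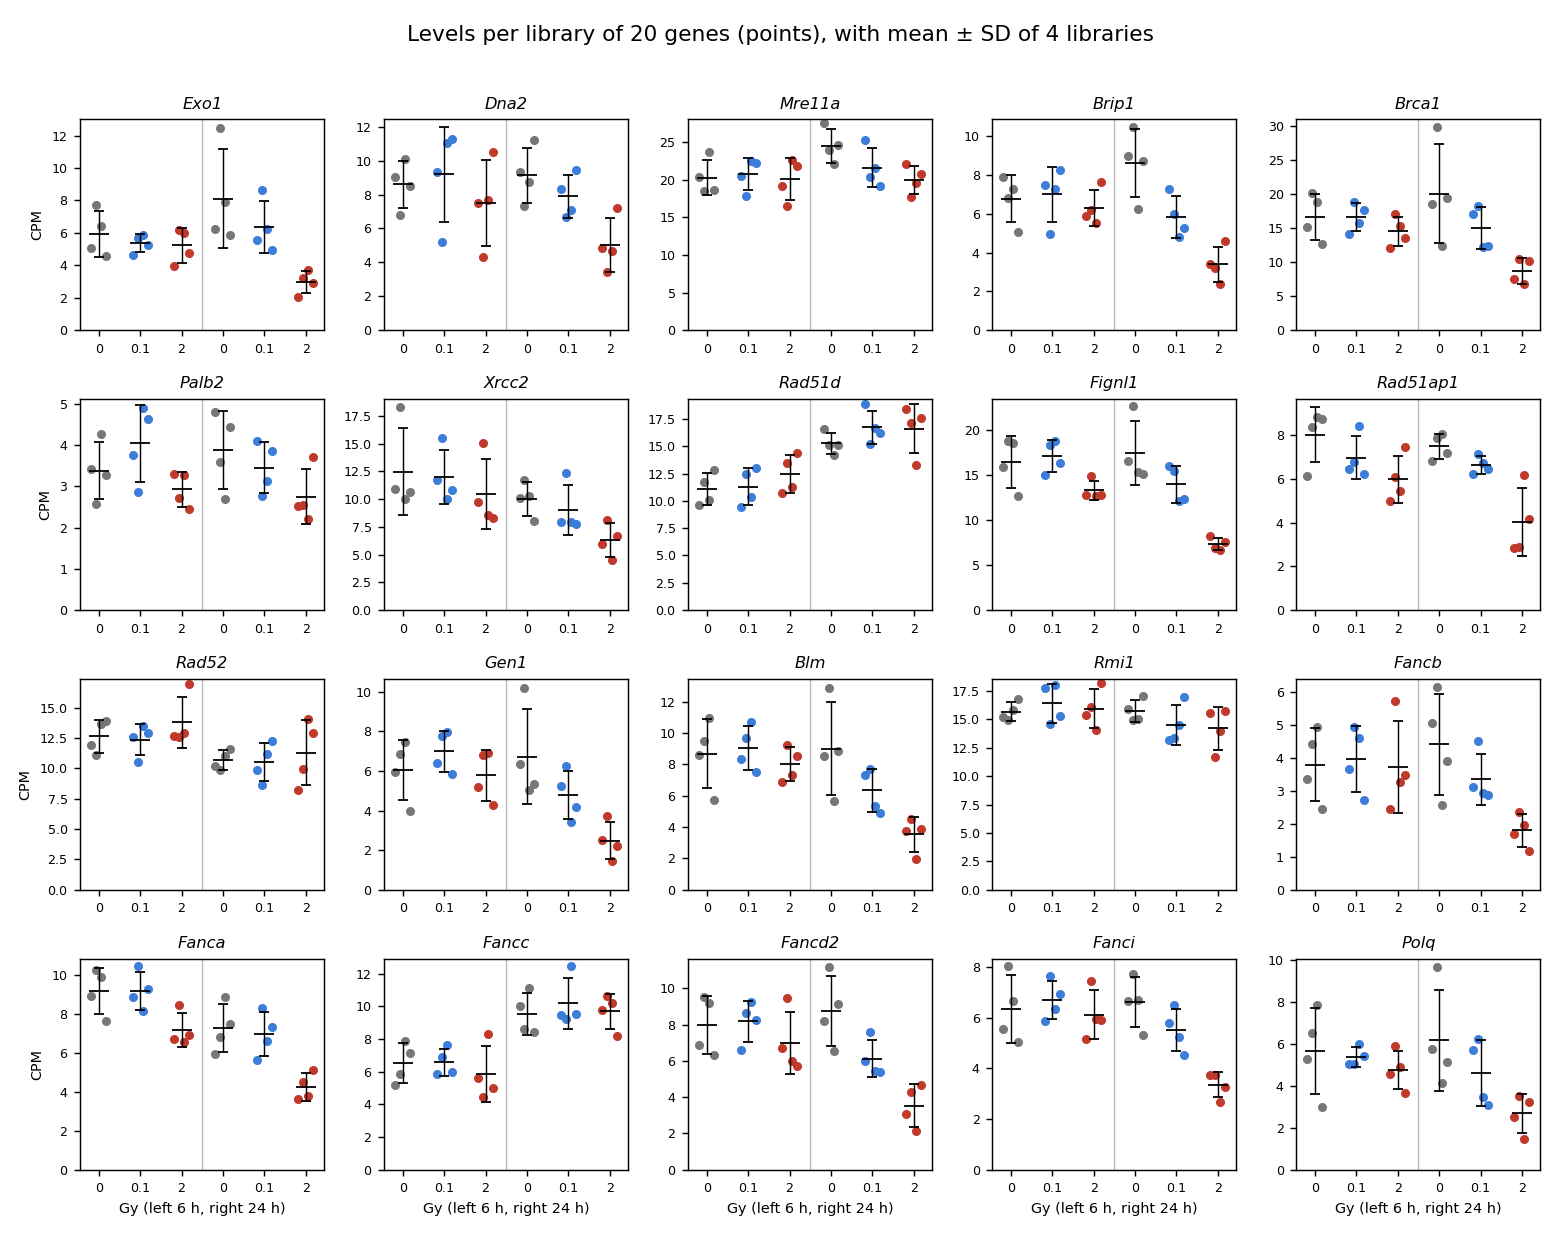
CPM in each library (points) of 20 genes named above, at 0, 0.1 and 2 Gy, at 6 h to the left and 24 h to the right of the line in each panel, with the mean and SD of 4 libraries in black. The 2 Gy points at 24 h lie below all 0 Gy points of that time for *Exo1*, *Fignl1*, *Gen1* and *Fancd2*, and overlap them for *Rad51d*, *Rad52* and *Fancc*.

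Per kilobase of exon, the levels at 24 h in mock-irradiated cells spanned from 0.332 ± 0.104 CPM per kb (SD, n = 4) in *Rmi2* and 0.334 ± 0.0523 in *Rad51b* to 9.21 ± 1.16 in *Rad50* and 11.7 ± 2.60 in *Nbn*. Of the 39 pairs of neighbours in this order, 36 differed by less than the larger of their SDs, the exceptions being *Fancc* with *Rad54l*, *Rad51ap1* with *Rad52*, and *Rmi1* with *Mus81*. The most abundant genes belonged to break sensing and early resection (*Nbn*, *Rad50*, *Rbbp8*) together with *Mus81*. Over the 40 genes, the log2 fold change at 24 h after 2 Gy had Spearman's rho of 0.396 with this level, of 0.388 with GC content and of -0.403 with exon length. With the block and the correction these were 0.414, 0.201 and -0.274. They describe 40 genes measured in the same libraries.

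At 6 h after 2 Gy the median of the 40 genes was -0.18 (all genes -0.00), and 30 were below 0, against 50.4% of all genes. With the block and the correction for GC content and length the median was -0.23. Across all genes tested the log2 fold change correlated with GC content by -0.373 at 6 h, opposite in sign to 24 h (0.559). The median was -0.14 in the pair numbered 1, -0.13 in pair 2, -0.20 in pair 3 and 0.07 in pair 4, and 10 genes were lower in 4 of 4 pairs and 1 higher (8.39% and 8.61% of genes with at least 10 counts in 4 libraries). None was called unpaired or with the block, and no other gene was (0% in both fits). With the correction for GC content and length *Fignl1* was called lower, at -0.41 (0.138% of all genes were called lower and 0.581% higher), and with DESeq2 none of the 40 (0.00333% of all genes). At an unadjusted p under 0.05, 1 gene was lower and 0 higher (0.725% and 0.619% of all genes), namely *Rmi2*, a subunit of the complex that dissolves junctions. *Rmi2* had 1.78, 1.98, 2.04 and 3.04 CPM at 0 Gy and 0.948, 1.40, 0.899 and 0.794 CPM at 2 Gy. The groups did not overlap, and the log2 fold change of -1.12 (SE 0.275, unadjusted p 0.00289, adjusted p 0.9999) rested on 13 to 62 reads per library. *Rad54l* was the other gene without overlap (0.707% of all genes were lower and 0.463% higher without overlap). The log2 fold changes at 6 h of the 7 genes with the largest differences at 24 h were -0.31 (SE 0.151) for *Fignl1*, -0.19 (SE 0.227) for *Exo1*, -0.19 (SE 0.218) for *Fancd2*, -0.12 (SE 0.211) for *Blm*, -0.10 (SE 0.189) for *Brip1*, -0.06 (SE 0.244) for *Gen1* and -0.03 (SE 0.313) for *Fancb*.

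The difference between both times in the response to 2 Gy was tested as an interaction over 16 libraries. Its median over the 40 genes was -0.43, and it was not called unpaired for any gene (0% of all genes). With the block within each time, 14 genes were called lower at 24 h than at 6 h and none higher, against 3.23% and 3.55% of all genes. These were *Bard1*, *Blm*, *Brca1*, *Brip1*, *Exo1*, *Fancb*, *Fancd2*, *Fanci*, *Fignl1*, *Gen1*, *Nbn*, *Polq*, *Rad50* and *Rbbp8*. Of them 7 remained with the correction for GC content and length, *Blm*, *Brca1*, *Brip1*, *Exo1*, *Fancd2*, *Fanci* and *Gen1* (0.949% of all genes were lower and 1.43% higher). At an unadjusted p under 0.05, 13 were lower and 1, *Fance*, higher (2.57% and 2.34% of all genes), 33 were below 0 (48.9%), and DESeq2 called none of the 40 (0.0125% of all genes were lower). *Gen1* had the largest blocked difference, -1.38 (SE 0.186, adjusted p 0.0132). These calls also depended on the libraries, with 0 in the blocked fit without replicate 1 or 2 (0% of all genes), 6 lower without replicate 4 (0.407%), and 17 lower and 1 higher without replicate 3 (11.3% and 12.2%).

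After 0.1 Gy the values were smaller. Both doses were compared with the same mock-irradiated libraries, so their fold changes share these controls. At 24 h the median was -0.19 (all genes -0.01), and 32 of the 40 were below 0 (51.1% of all genes). The median was -0.10 with the block and the correction for GC content and length, and 18 genes were lower in 4 of 4 pairs and 3 higher (15.6% and 15.5% of genes with at least 10 counts in 4 libraries). No gene was called unpaired (0%), and 2 of the 40, *Brip1* and *Fancd2*, were lower at an unadjusted p under 0.05, with none higher (0.877% and 0.612% of all genes). With the block 4 were called lower, namely *Bard1*, *Brip1*, *Fancd2* and *Gen1*, and none higher (4.5% and 2.34% of all genes). *Brip1* had 7.30, 6.00, 4.79 and 5.27 CPM at this dose, between its values at 0 and 2 Gy, and *Fancd2* had 6.00, 7.61, 5.44 and 5.41 CPM. Their log2 fold changes were -0.57 (SE 0.225, blocked adjusted p 0.0327) and -0.53 (SE 0.222, blocked adjusted p 0.0374). With the correction for GC content and length none of the 40 was called (0.538% of all genes were lower and 1.35% higher), and the blocked count depended on the libraries. It was 12 lower and 1 higher without replicate 3 (11.8% and 11.4% of all genes), 1 lower without replicate 1 (4.3%), and 0 without replicate 2 or 4 (0.13% and 0.0987% of all genes in either direction). In none of the 40 did the libraries of 0.1 and 0 Gy separate (0.544% of all genes were lower and 0.568% higher without overlap).

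At 6 h after 0.1 Gy the median was 0.0065 (all genes -0.00) and -0.018 with the block and the correction, and 18 of the 40 were below 0 (51.5% of all genes). None was called unpaired, with the block or with the correction (0% of all genes in each), and none had an unadjusted p under 0.05 (0.0936% of all genes were lower and 0.0562% higher). *Rad54l* was lower without overlap of the groups (0.212% of all genes were lower and 0.169% higher in this way).

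Group means were highest at 0 Gy, lower at 0.1 Gy and lowest at 2 Gy in 31 of the 40 genes at 24 h and in 13 at 6 h, against 24.8% and 24.5% of genes with at least 10 counts in 4 libraries. The exceptions at 24 h were *Fancc*, *Fance*, *Fancf*, *Fancg*, *Mus81*, *Rad51c*, *Rad51d*, *Rad52* and *Xrcc3*. Between 2 and 0.1 Gy at 24 h the median was -0.53 (all genes 0.02), and 36 of the 40 were below 0 (42.8% of all genes). No gene was called unpaired or blocked (0% in both fits), 16 of the 40 had an unadjusted p under 0.05, all lower (1.14% of all genes were lower and 0.206% higher), and in 13 the 2 Gy libraries lay below all 0.1 Gy libraries (1.06% lower and 0.181% higher). With the block and the correction *Blm*, *Brca1*, *Exo1*, *Fanca*, *Fignl1* and *Gen1* were called lower (0.612% of all genes were lower and 0.0375% higher), and DESeq2 called *Exo1* and *Fignl1* lower (0.208% of all genes).

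**Figure D3:**
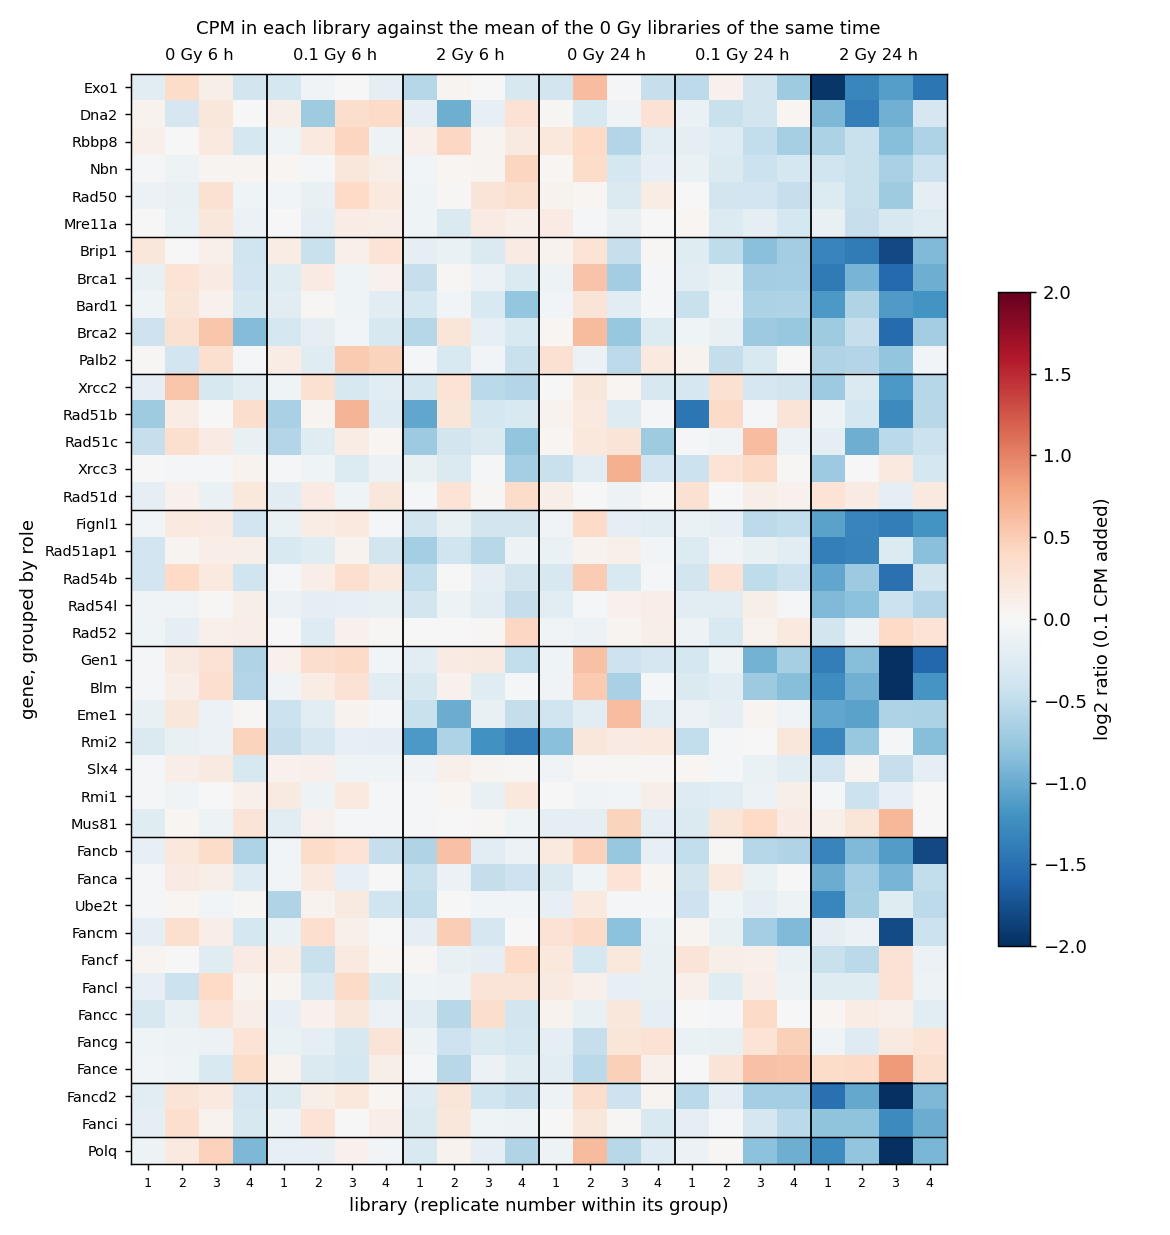
Log2 ratio of the CPM of each gene (rows, grouped by role) in each of 24 libraries (columns, replicates 1 to 4 within each dose and time) to the mean of the 0 Gy libraries of the same time, with 0.1 CPM added. Blue fields, which mark lower levels, gather in the 4 libraries of 2 Gy at 24 h, and *Fance* is red there in 4 of 4 libraries.

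Mock-irradiated cells of both times were compared as well, where the median log2 fold change of 24 h against 6 h was 0.07 (all genes -0.02) and turned to -0.03 with the block and the correction for GC content and length, and 0 of 40 were called unpaired, where 6.7% of all genes were. At an unadjusted p under 0.05, 5 were higher, *Fancc*, *Fancm*, *Nbn*, *Rad50* and *Rad51d*, and none lower (12.9% and 11.9% of all genes). In *Fancc*, *Nbn* and *Rad51d* all libraries of 24 h exceeded those of 6 h, and in *Rmi2* all were lower (7.82% and 7.43% of all genes). DESeq2 called *Fancm* and *Rad50* higher (6.38% of all genes were higher and 5.29% lower). *Rad50* had 31.4, 30.8, 42.2 and 32.0 CPM at 6 h and 51.8, 50.7, 40.6 and 55.0 CPM at 24 h, a log2 fold change of 0.52 (SE 0.157, adjusted p 0.0802). *Fancm* had 6.89, 9.80, 8.64 and 6.12 CPM at 6 h and 18.3, 19.5, 8.48 and 13.7 CPM at 24 h, a log2 fold change of 0.92 (SE 0.284, adjusted p 0.0878). The replicate 3 library at 24 h was the lowest of its group in both genes. Without it the unpaired fit called 1 gene lower and 3 higher (9.4% and 9.24% of all genes). Deviations of libraries with the same number correlated by 0.409, 0.824 and 0.517 between the times for replicates 1, 2 and 4, and by 0.0645 for replicate 3, so the numbers were not taken as pairs here. With the number as a block *Fancm* was called higher (7.26% of all genes were higher and 8.02% lower), and without replicate 3 the block called 2 lower and 11 higher (23.7% and 21.7%). With the block and the correction *Bard1* was called lower and *Fancc*, *Fancm*, *Rad50* and *Rad51d* higher (12.7% and 13.9% of all genes).

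Other lists of genes were set beside the 40 at 24 h after 2 Gy, with calls from the blocked fit and medians of log2 fold changes from the unpaired fit. Of 28 partners in the same pathways, such as the RPA subunits that coat resected DNA, 4 were called lower and 1 higher, with a median of -0.16, where 6.69% of all genes were called lower and 6.53% higher in that fit. *Usp1*, which removes ubiquitin from the ID complex, was among those called lower (-0.85, SE 0.215). Of 12 genes of non-homologous end joining, the route that needs no sister chromatid, 1 was called lower (*Rif1*) and 1 higher (*Paxx*), near those shares, with a median of -0.07. Of 22 S phase genes 21 were called lower (median -0.73), and of 20 genes of the G2 and M phases 19 (median -0.96), while 6 of 10 p53 targets were called higher (median 0.55), among them *Cdkn1a*, an inhibitor of cyclin-dependent kinases (0.57, SE 0.192). With the correction for GC content and length, by which 1.69% of all genes were called lower and 1.82% higher, 3 partners were called lower and 1 higher (median -0.05), and no end joining gene was called (median 0.08). In that fit 17 S phase genes (median -0.69) and 20 genes of the G2 and M phases (median -0.92) were called lower and 4 p53 targets higher (median 0.32).

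The summed level of the 40 genes at 24 h was 427 to 528 CPM at 0 Gy, 388 to 430 CPM at 0.1 Gy and 323 to 358 CPM at 2 Gy. That of the G2 and M genes was 644 to 830, 522 to 620 and 315 to 376 CPM, and that of the S phase genes 721 to 856, 658 to 738 and 428 to 553 CPM. Both lists of cell cycle genes were thus lower in the same libraries as the 40 genes, and their part in the result was not tested. The 12 end joining genes summed to 245 to 293 CPM at 0 Gy, 242 to 277 CPM at 0.1 Gy and 237 to 279 CPM at 2 Gy, with overlapping ranges. Their sum was lower than at 0 Gy in 4 of 4 pairs at both doses. The means of the sums were 279 CPM at 0 Gy, 254 CPM at 0.1 Gy and 256 CPM at 2 Gy.

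Markers of the cell types were also compared within the pairs, without a test. The summed oligodendrocyte lineage markers at 24 h were 578, 624, 638 and 453 CPM in replicates 1 to 4 at 0 Gy and 692, 897, 789 and 488 CPM at 2 Gy. They were higher in 4 of 4 pairs at 2 Gy and also in 4 of 4 at 0.1 Gy. Summed microglia markers, 353 to 2506 CPM at 0 Gy and 378 to 2980 CPM at 2 Gy, were higher in 4 of 4 pairs at both doses as well. Fibroblast and vessel markers, 4302 to 8186 and 4251 to 8177 CPM, were lower at 2 Gy in 4 of 4 pairs, and astrocyte markers, 2686 to 3689 and 2589 to 3641 CPM, in 3 of 4. Neuronal markers, 470 to 736 and 525 to 673 CPM, were lower in 3 of 4 pairs. The ranges of both doses overlapped for each of these 5 lists of markers, and their part in the result was not tested.

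**Figure D4:**
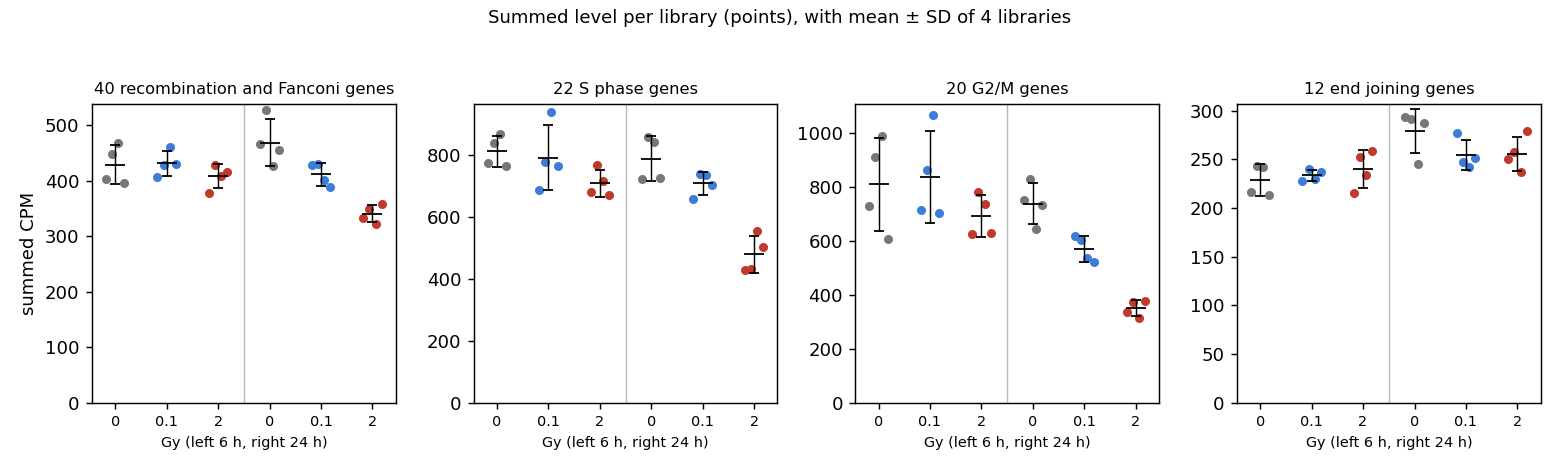
Summed CPM per library (points) of the 40 recombination and Fanconi genes and of 22 S phase, 20 G2 and M and 12 end joining genes, at 0, 0.1 and 2 Gy, 6 h to the left and 24 h to the right of the line, with the mean and SD of 4 libraries in black. At 24 h the 2 Gy points lie below all 0 Gy points in the first 3 panels and overlap them in the last, where each was lower than its paired 0 Gy point.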

How the data were processed

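mRNA of primary astrocytes was sequenced in 24 libraries, 4 for each of 6 combinations of dose and time. The authors deposited 1 table of raw counts for each library, made on mouse build mm10 per the submitters' processing notes. The aligner, the counter and the use of strand are not given in the sources used here. Each table lists 49315 genes, 198 of 198 listed symbols were matched, and 0 columns belonged to other samples. Where exons overlap another gene, reads may be shared.

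Groups and replicate numbers come from the labels. The methods call the 4 libraries of a group biological repeats. Counts were fitted in edgeR 4.0.16 (R 4.3.3) with TMM normalization, its filter on low counts, the quasi-likelihood test and Benjamini-Hochberg adjustment over all genes tested, on the libraries compared (7 comparisons, threshold 0.05). CPM values use TMM over all 24 libraries. Groups were also compared by whether the CPM of their libraries overlapped, and within pairs of equal replicate number, with no p. The 40 genes and the other lists were chosen with earlier results of these data known. Values per library are given for up to 2 genes a role group with the largest change among those called with the block, and for the gene nearest 0 in role groups of 3 or more. *Fance*, *Rmi2*, *Rad50* and *Fancm* were added after their values were seen.

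Replicate numbers were taken to pair libraries within a time, as deviations from group means of libraries with the same number correlated by 0.539 to 0.927 across genes in the 5 comparisons of doses. No 2 libraries of a group agreed within sampling noise (lowest chi-square per degree of freedom 25.9). Alternatives were DESeq2 1.42.0 and limma 3.58.1 (voom), other size factors, library size alone, no filter, 10 counts in every library, the replicate block without and with splines of GC content and length (5 degrees of freedom), all 24 libraries in one fit, and each library left out. Chosen after seeing the data were the newer quasi-likelihood method and DESeq2 with the block.

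The fits were tested on simulated counts of 15892 genes for 2 Gy against 0 Gy at 24 h, with 200 genes changed by 1.5 on the log2 scale. The unpaired fit called 47% of these and 0 other genes, and the blocked fit 94% with 25 others. Those 25 were unchanged genes, so false calls. The counts were drawn from the blocked design, without a trend of the dose effect with GC content, a setting that favours the block. The planted change was larger than that of any of the 40 genes (largest -1.44), so these percentages do not give the power for them. Depth was 14742855 to 38194800 counts per library, and no counting intervals were computed.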

Additional observations from a re-analysis of the deposited data

Results flagged for a closer look

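The 20 genes chosen by the rule for values by library gave 120 groups of 4 libraries. Each group was examined for a library far from the other 3, and 7 were flagged. Chance alone flags about 1 in 20 independent groups, but these groups came from the same 24 libraries. The flags of *Xrcc2*, *Fancb* and *Fignl1* were all in replicate 2, which stood apart in its microglia markers. *Xrcc2* was high in replicate 2 at 0 Gy 6 h (18.3 CPM) and at 0.1 Gy 24 h (12.4 CPM). *Fancb* was high in replicate 2 at 0.1 Gy 24 h (4.50 CPM), as was *Fignl1* at 2 Gy 6 h (15.0 CPM). *Fancc* was high in replicate 3 at 0.1 Gy 24 h (12.5 CPM), and *Rad52* in replicate 4 at 2 Gy 6 h (16.9 CPM). *Rad51ap1* was low in replicate 1 at 0 Gy 6 h (6.14 CPM).

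The response to 2 Gy differed between 24 h and 6 h for 10 of the 20 genes by the interaction term of edgeR's fit with the replicate block, and for 0 of them in the unpaired fit. Most of the 20 genes had been chosen for their change at 24 h, so this count is no independent evidence of a difference between the times, and 3.23% of all genes were called in this direction. With the correction for GC content and length 7 of the 10 were called, without *Fancb*, *Polq* and *Fignl1*. The log2 differences were -1.38 for *Gen1*, -1.22 for *Blm*, -1.22 for *Brip1*, -1.21 for *Exo1*, -1.19 for *Fancb*, -1.12 for *Fancd2*, -0.96 for *Polq*, -0.96 for *Brca1*, -0.92 for *Fignl1* and -0.92 for *Fanci*.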

How the results depend on the processing

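The median of the 40 genes at 24 h after 2 Gy lay between -0.69 and -0.55 in fits that left out 1 library, and at -0.49 with the block and the correction for GC content and length. With that correction the median was -0.10 in place of -0.19 at 0.1 Gy and 24 h, and changed sign at 0.1 Gy and 6 h (-0.018) and between the times in mock-irradiated cells (-0.03). Numbers of the 40 genes called depended on the pairing and are given with the share of all genes called in the same fit. At 2 Gy against 0 Gy at 24 h they were 0 unpaired (0%), 25 with the replicate block (13.2%), 15 with the block and that correction (3.51%), 9 with DESeq2 (0.727%), 25 with DESeq2 and the block (17%), 12 with all 24 libraries in one fit (0.622%), and 7 to 29 with the block and 1 replicate number left out (0.432% to 33.1%). At 6 h the corrected blocked fit called 1 (0.719%). At 0.1 Gy and 24 h the block called 4 (6.84%), DESeq2 with the block 4 (14.7%), and the block with 1 number left out 0 to 13, with 1 without replicate 1 (0.0987% to 23.2%). Between 2 and 0.1 Gy the calls were 2 with DESeq2 (0.208%), 5 with DESeq2 and the block (0.742%), 6 with the corrected block (0.65%), 1 with all 24 libraries (0.0864%) and 0 to 6 with the block and a number left out, with 2 without replicate 4 (0% to 1%). The median was -0.56 to -0.39 there with 1 library left out, -0.39 without replicate 2 of 0.1 Gy. For the interaction the block called 14 (6.78%), the corrected block 7 (2.38%, median -0.30), DESeq2 with the block 15 (18.5%), and the block with a number left out 0 to 18, with 6 without replicate 4 (0% to 23.4%). Between times in mock-irradiated cells, where 3 of 4 numbers matched best with themselves and the numbers were not taken as pairs, the block called 1 (15.3%), the corrected block 5 (26.6%), DESeq2 2 without and 2 with the block (11.7% and 18%), all libraries in one fit 3 (14.3%), and fits without replicate 3 gave 4 unpaired (18.6%) and 13 blocked (45.4%, median 0.20). There 2 in place of 4 genes had groups without overlap when CPM used library size alone. The cause of these differences was not tested. Fewer libraries leave fewer residual degrees of freedom.

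Single genes near 0 at 24 h after 2 Gy changed sign: with the corrected block *Fancg* (-0.014), *Fancl* (0.17) and *Rmi1* (0.10). Without 1 library the log2 fold change was -0.073 to 0.16 for *Fancg*, -0.18 to 0.0066 for *Fancl*, -0.032 to 0.11 for *Fancc*, -0.023 to 0.20 for *Rad52* and -0.32 to 0.16 for *Xrcc3*. With the block and without a replicate number it was 0.061 (without 1) and 0.041 (without 2) for *Fancl*, -0.068 (without 2) for *Fancc*, and -0.019 for *Rad52* and 0.021 for *Xrcc3* (both without 3). *Rad51b* and *Rmi2* had the fewest reads, and their values are the ones that depth limits most in counting error.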
